A study of Mus musculus with 6 samples.

Results

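Replication-dependent histone genes were examined in the mouse microglial cell line Bv2, which grows without limit in culture, as the rows of the deposited table named Hist1h2bh, Hist1h2bm, Hist1h4a, Hist2h2aa2 and Hist2h3c2. All 5 were found, in a table of 1228 genes, and no other symbol in the table had the Hist prefix of this family. RNA sequencing covered 3 samples deprived of oxygen and glucose and then reperfused (OGD/R), and 3 control samples, all labelled wild type (WT). For OGD/R the protocol gives 30 min in pure nitrogen, 2 h at 1% oxygen in medium free of glucose and serum, and 24 h of reperfusion in standard medium. It also mentions an infection 72 h earlier without saying to which samples it applies, so infection and OGD/R cannot be told apart if only one group was infected. All samples come from 1 cell line and no label says that the replicates were grown separately, so a p-value here covers the spread of these 6 samples, possibly a technical one, and no more.

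Chromatin packs DNA around a core of the histones H2A, H2B, H3 and H4, and a cell that copies its genome has to make new histones at the same time. The genes for these replication-dependent histones lie in clusters and lack introns, and their main mRNAs end in a conserved stem-loop instead of a poly(A) tail. Stem-loop binding protein holds this hairpin and carries the mRNA through processing, translation and its rapid decay when DNA synthesis stops. Some of these genes also give longer, polyadenylated transcripts that extend past the hairpin. The sources used here give neither whether the libraries were made from poly(A) RNA nor whether the counting used strand.

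Hist1h2bh and Hist1h2bm encode H2B, Hist1h4a encodes H4, Hist2h2aa2 encodes H2A and Hist2h3c2 encodes H3. The hairpins are shown because they define the family. Each sequence runs 5′ to 3′ in DNA letters from the GENCODE M21 transcript on GRCm38, and capitals mark the paired arms of the stem around the loop.
Hist1h2bh, chr13:23542923-23542948, minus strand: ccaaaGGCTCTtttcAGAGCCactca
Hist1h2bm, chr13:21722501-21722526, plus strand: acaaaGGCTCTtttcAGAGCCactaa
Hist1h4a, chr13:23760795-23760820, minus strand: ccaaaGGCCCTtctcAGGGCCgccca
Hist2h2aa2, chr3:96239779-96239804, minus strand: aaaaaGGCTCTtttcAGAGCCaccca
Hist2h3c2, chr3:96238480-96238505, minus strand: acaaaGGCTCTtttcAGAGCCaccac
Hist1h4a has a stem of its own in this group, while the other members share the same 16 bases. That shared hairpin, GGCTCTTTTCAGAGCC, occurs in transcripts of 26 of 67 annotated protein-coding Hist genes (38.8%) and of 2 of 21834 other protein-coding genes. The search needs an exact match within an annotated transcript. Some annotated Hist genes, such as Hist1h2bl and Hist1h2bn, are no longer than an H2B coding sequence with its stop codon. The share among Hist genes is therefore a lower limit. The hairpin starts 27 to 30 nt after the stop codon in 4 members and 58 nt after it in Hist2h2aa2. The annotated transcripts run on past the stem for 1214 nt in Hist1h2bh, 377 nt in Hist2h3c2, 108 nt in Hist1h4a, 46 nt in Hist1h2bm and 35 nt in Hist2h2aa2. Of the poly(A) signals AATAAA and ATTAAA, 1 match lies past the stem in Hist1h2bh, 1097 nt beyond it, and 1 in Hist1h4a, 79 nt beyond it.

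**Figure D1:**
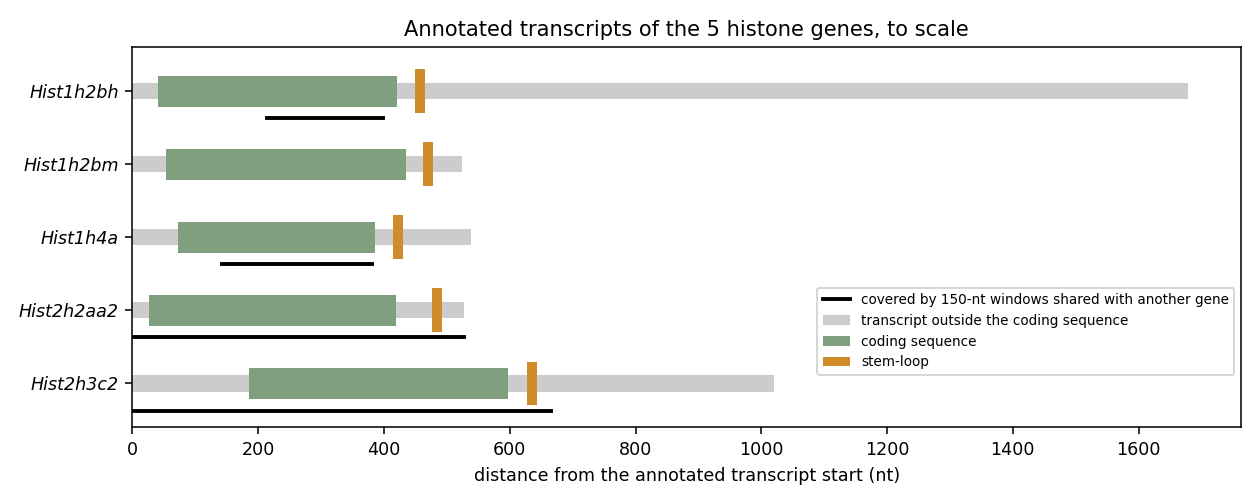
Annotated transcripts of the 5 histone genes, drawn to scale in nucleotides from the transcript start, with the coding sequence, the stem-loop and the stretches covered by 150-nt windows that also occur in another gene. Hist1h2bh runs 1214 nt past its stem-loop, and every window of Hist2h2aa2 is shared.

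How far a read can be assigned to one histone gene differed among the members. Of the 150-nt windows of the Hist2h2aa2 transcript, the length of 1 read, all 379 also occur, on either strand, in transcripts of other genes. These are the H2A gene Hist2h2aa1 and the genes Gm20632, Gm20633 and Gm20634. In Hist2h3c2 517 of 871 windows (59.4%) are shared, with the H3 genes Hist2h3c1 and Hist2h3b among others, and the 354 windows found nowhere else are those that end more than 666 nt from the transcript start, beyond the stem-loop. In Hist1h4a 90 of 390 windows (23.1%) occur in other H4 genes, and in Hist1h2bh 36 of 1530 (2.35%) in Hist1h2bc and Hist1h2bg. All 375 windows of Hist1h2bm are its own, although its coding sequence is identical to that of Hist1h2bh at 365 of 378 bases (96.6%). The values of Hist2h2aa2, and to a lesser degree of Hist2h3c2 and Hist1h4a, are therefore uncertain as to their gene. Gm20632, an antisense gene, spans all 528 nt of Hist2h2aa2, and without strand their reads cannot be told apart.

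The table holds FPKM, fragments scaled to gene length and to library size, for genes whose group means all differ about 2-fold or more, so it is treated here as picked on these same samples. The steps between low values corresponded to 8028000 to 8666000 counted units in the OGD/R libraries and 7630000 to 8247000 in the control libraries. With these library sizes, 97.2% to 100% of low values were whole numbers of units, and every value of the 5 histone genes lay within 0.0636 units of a whole number. Units therefore show how many counted fragments stand behind each value (a unit may be a read or a read pair). Genes with a mean of at least 1 FPKM over the 6 libraries were tested with limma on log2(FPKM + 1), a scale that understates the change of genes this low. Of 852 genes tested, 829 were called at an adjusted p under 0.05, or 97.3%, with 46.6% of the tested genes higher and 50.7% lower in OGD/R.

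The histone genes moved in both directions. Of the 5, 3 passed the expression minimum, all 3 were called, and 1 was higher (Hist1h2bh) and 2 were lower in OGD/R (Hist2h2aa2 and Hist2h3c2). With 97.3% of the tested genes called, this share is the background of the tested genes and says nothing particular about histone genes. Hist1h2bh passed the minimum only through its OGD/R values and Hist2h2aa2 only through its control values, so that they had to differ, and the count supports nothing about the 5 genes. The median log2 fold change of the 3 was -1.33, which is the value of Hist2h3c2, against -0.68 over all genes tested. The tested genes lie on both sides of 0 with few between, and their median was -0.13 with GC content and length regressed out. The gap between the medians therefore supports nothing about histone genes. Hist1h2bm and Hist1h4a had means of 0.842 and 0.595 FPKM and were not tested, while Hist1h2bh passed the minimum narrowly at 1.07 FPKM. In 4 of the 5 genes the groups did not overlap, against a background of 94.9% of the table: OGD/R samples were all above in 1 gene (48.4% of the table) and all below in 3 (46.5%). With a replicate block 98% of the tested genes were called, among them the same 3 histone genes. In samples of many cells, a different share of cells in S phase and a different amount of histone mRNA per cell cannot be told apart from these genes alone. The 6 genes of S-phase DNA replication in the table were all higher in OGD/R, with summed levels of 226.6 to 242.7 FPKM in the OGD/R samples and 102.8 to 103.4 FPKM in the control samples, and their part in the histone values was not tested.

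**Figure D2:**
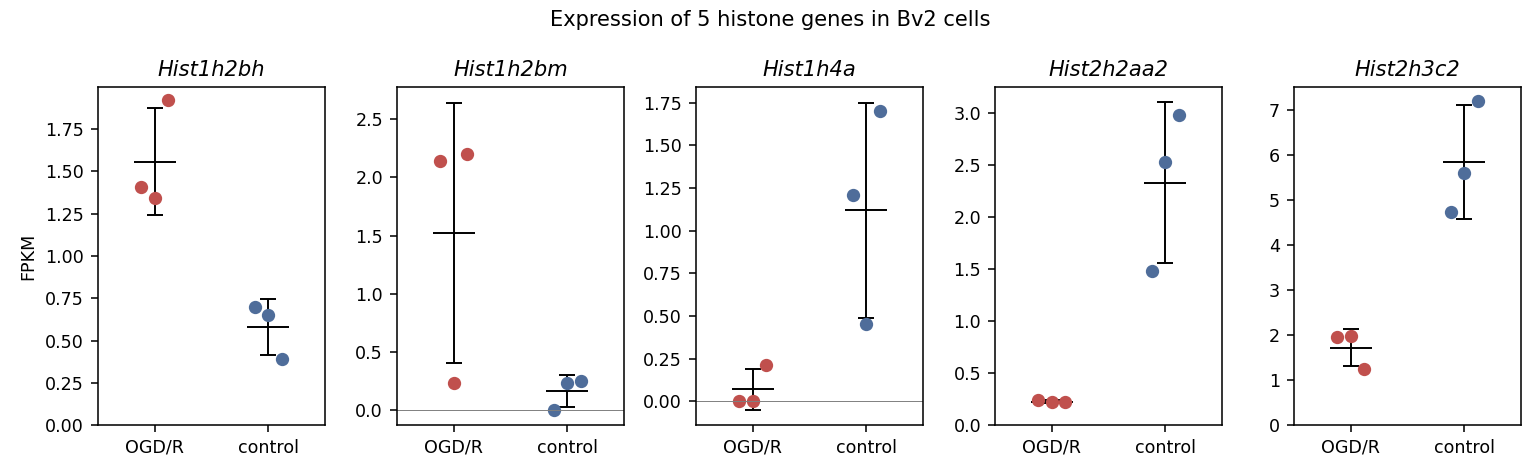
FPKM of the 5 histone genes in 3 OGD/R and 3 control samples, each panel with its own linear axis. Points are samples, and bars mark the mean and SD. The OGD/R samples lie above the control samples in Hist1h2bh and below them in Hist1h4a, Hist2h2aa2 and Hist2h3c2, and the groups overlap in Hist1h2bm.

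Of the H2B genes, Hist1h2bh (ENSMUSG00000114456) is a single exon at chr13:23541714-23543392 on the minus strand of GRCm38. It had 1.41, 1.34 and 1.92 FPKM in OGD/R samples 1 to 3, against 0.70, 0.65 and 0.39 FPKM in control samples 1 to 3. All OGD/R samples were above all control samples, with the highest value in OGD/R sample 3 and the lowest in control sample 3. The means were 1.56 ± 0.317 FPKM in OGD/R and 0.58 ± 0.166 FPKM in control (SD, n = 3 each), a ratio of 2.68. Hist1h2bh rose with a log2 fold change of 0.69 ± 0.15 SE (limma, adjusted p = 0.00349). Behind these values were 19, 19 and 28 units in the OGD/R libraries and 9, 9 and 5 units in the control libraries. Summed over libraries and scaled by their sizes, the ratio was 2.68 (exact 95% interval 1.65 to 4.52, counting error only). With GC content and exon length regressed out of each library, the log2 fold change was 0.37 and the call was lost (limma adjusted p = 0.0695). In that setting 80.6% of the tested genes were called.

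Hist1h2bm (ENSMUSG00000114279), the other H2B gene, lies at chr13:21722044-21722567 on the plus strand, 1819 kb from Hist1h2bh. Its values were 2.14, 0.23 and 2.20 FPKM in the OGD/R samples, against 0, 0.23 and 0.25 FPKM in the control samples. OGD/R samples 1 and 3 were high and OGD/R sample 2 stood at the level of control samples 2 and 3, so the groups overlapped. The means of 1.52 ± 1.12 FPKM in OGD/R and 0.16 ± 0.139 FPKM in control (SD, n = 3 each) were not separated by the exact permutation test (two-sided p = 0.30, where 3 against 3 cannot go below 0.10). The units were 9, 1 and 10 in the OGD/R libraries and 0, 1 and 1 in the control libraries. A count of 0 in control library 1 allows up to 3 units, or 0.747 FPKM. The summed ratio was 9.36, with an exact 95% interval from 2.27 to 82.6 for counting error only. Without a minimum on expression, where 96% of the whole table was called, limma called Hist1h2bm as well (adjusted p = 0.0342).

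Hist1h4a (ENSMUSG00000060093), an H4 gene at chr13:23760692-23761230 on the minus strand, lies 217 kb from Hist1h2bh. It was listed at 0, 0 and 0.21 FPKM in the OGD/R samples, against 1.21, 0.45 and 1.70 FPKM in the control samples. All OGD/R samples were below all control samples, and control sample 2 came closest to them. In units these values are 0, 0 and 1 in the OGD/R libraries and 5, 2 and 7 in the control libraries. The OGD/R value of this gene therefore rests on 1 unit in library 3, and the counts of 0 allow up to 0.693 and 0.657 FPKM in libraries 1 and 2. The summed ratio was 0.0668, with an exact 95% interval from 0.00158 to 0.439 for counting error only. The exact permutation test gave the smallest p it can reach with 3 against 3 (two-sided p = 0.10). Without the expression minimum, limma called Hist1h4a lower (log2 fold change -0.95, adjusted p = 0.00661).

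Hist2h2aa2 (ENSMUSG00000063954), an H2A gene, lies at chr3:96239749-96240276 on the minus strand. It had 0.24, 0.22 and 0.22 FPKM in the OGD/R samples, against 1.48, 2.53 and 2.98 FPKM in the control samples. The OGD/R samples were nearly equal and all below the control samples, of which sample 1 was the lowest. The means were 0.227 ± 0.0115 FPKM in OGD/R and 2.33 ± 0.77 FPKM in control (SD, n = 3 each), and Hist2h2aa2 fell with a log2 fold change of -1.41 ± 0.19 SE (limma, adjusted p = 0.000515). Each OGD/R library held 1 unit, and the control libraries held 6, 11 and 12 units, so the OGD/R SD is that of 3 equal counts of 1 unit. The summed ratio was 0.0968 (exact 95% interval 0.0189 to 0.312, counting error only). On the log2(FPKM + 0.1) scale the log2 fold change was -2.84, and voom on the recovered units gave -2.80. With GC content and length regressed out it was -0.33, and the call was lost (limma adjusted p = 0.124).

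Hist2h3c2 (ENSMUSG00000081058), an H3 gene at chr3:96238108-96239127 on the minus strand, had the most units of the 5. Its values were 1.95, 1.97 and 1.24 FPKM in the OGD/R samples, against 4.73, 5.59 and 7.20 FPKM in the control samples. The lowest value was that of OGD/R sample 3 and the highest that of control sample 3, and the groups did not overlap. The means were 1.72 ± 0.416 FPKM in OGD/R and 5.84 ± 1.25 FPKM in control (SD, n = 3 each), a ratio of 0.295. Hist2h3c2 fell with a log2 fold change of -1.33 ± 0.18 SE (limma, adjusted p = 0.000561). The units were 16, 17 and 11 in the OGD/R libraries and 37, 47 and 56 in the control libraries, and the summed ratio was 0.294 (exact 95% interval 0.205 to 0.415, counting error only). It stayed called with GC content and length regressed out (log2 fold change -0.56, adjusted p = 0.0312), and not when a replicate block was added to that regression (adjusted p = 0.0619).

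**Figure D3:**
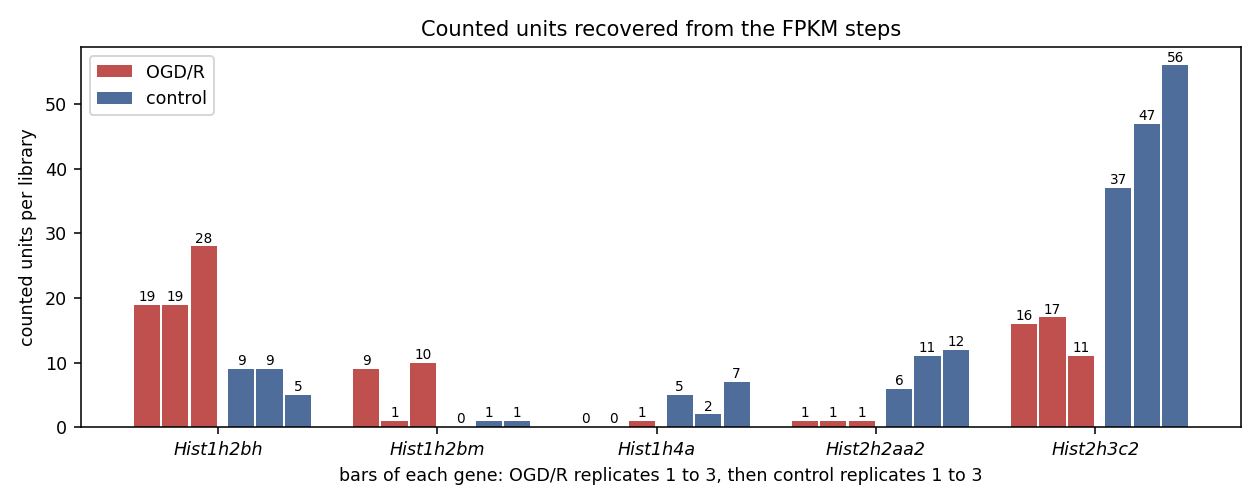
Counted units per library behind the 5 histone genes, recovered from the FPKM steps; the linear axis starts at 0. For each gene the bars are OGD/R replicates 1 to 3 and then control replicates 1 to 3, with the units printed above, from 0 in Hist1h4a and Hist1h2bm to 56 in Hist2h3c2.

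Summed within each library, the H2B genes stood higher and the other 3 genes lower in OGD/R. This grouping followed the direction of the means in these same samples, so the separation of the sums supports nothing further. The margin between single genes depended on the processing. The H2B genes together held 28, 20 and 38 units in the OGD/R libraries, against 9, 10 and 6 units in the control libraries. Hist1h4a, Hist2h2aa2 and Hist2h3c2 together held 17, 18 and 13 units in the OGD/R libraries, against 48, 60 and 75 units in the control libraries. Hist1h2bh gave 19 of the 20 H2B units of OGD/R library 2, where Hist1h2bm had 1 unit, as in control libraries 2 and 3. Of the control units of the other 3 genes, Hist2h3c2 gave 37, 47 and 56. The log2 ratio of Hist1h2bh to Hist2h3c2, on FPKM + 1, was -0.29, -0.34 and 0.38 in the OGD/R samples, against -1.75, -2.00 and -2.56 in the control samples. The difference of 2.02 had an exact permutation p of 0.10, the smallest possible. The ratio of Hist1h2bh to Hist2h2aa2 differed by 2.11 with the same p. All OGD/R samples were above the control samples in Hist1h2bh and below them in Hist2h3c2 and Hist2h2aa2. Both p-values were fixed by that, in genes of a table picked for differences, and test nothing further. With GC content and length regressed out, an alternative chosen after seeing the data, these differences were 0.93 and 0.70 (exact permutation p = 0.10 for each). Between the H2A and the H3 gene, the log2 ratio averaged -1.14 ± 0.226 in OGD/R and -1.05 ± 0.154 in control (SD, n = 3 each), and the difference of -0.09 did not pass (exact permutation p = 0.60). With a pseudocount of 0.1 the same difference was -1.13 (exact permutation p = 0.10), and with GC content and length regressed out it had the opposite sign, at 0.23 (exact permutation p = 0.20).

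Hist2h2aa2 and Hist2h3c2 are neighbours on chromosome 3, transcribed the same way with 621 nt between their annotated exons. The other genes of the table closest to them were antisense genes of the same cluster. Gm20632, which covers Hist2h2aa2 on the opposite strand, had 0.41, 0.24 and 0.24 FPKM in the OGD/R samples, against 0.70, 1.25 and 0.97 FPKM in the control samples. Gm20633, 3273 nt away, had 0.22, 0.42 and 0.16 FPKM in the OGD/R samples, against 0.88, 1.54 and 0.83 FPKM in the control samples. In both antisense genes the OGD/R values were all below the control values, as in 46.5% of the table, and neither reached the expression minimum. Both also hold 150-nt windows of Hist2h2aa2, so their values may not be separate from those of that gene. The next gene of the table on the far side of Hist2h3c2, 356 kb away, was the circadian repressor Ciart, which fell with a log2 fold change of -1.25 (limma adjusted p = 0.00323). On chromosome 13, the gene of the table nearest to Hist1h2bm was Gm44357, annotated as a miRNA gene of 142 nt and 469 nt away. Gm44357 was listed at 5.26, 3.33 and 0.81 FPKM in the OGD/R samples and at 0 in every control sample, from 6, 4 and 1 units in the OGD/R libraries. Ripor2, 821 kb from Hist1h4a, was not tested and had OGD/R values all above the control values, as in 48.4% of the table. Of 67 protein-coding Hist genes in GENCODE, 3 of 54 of the Hist1 cluster and 2 of 10 of the Hist2 cluster were in the table, and the others are not analysed here.

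The stretch before each gene holds part of the cell-cycle control of histone transcription. The H2B genes, and the neighbouring H2A and H3 genes, are shown since each of these pairs had OGD/R means on the same side of control. The windows shown are the 250 bases before the RefSeq start of each gene. They come from RefSeq on GRCm38.p6, run 5′ to 3′ along the gene, and capitals mark matches on either strand to CCAAT, to the TATA motif TATAAA and to the octamer ATTTGCAT, a motif known from H2B promoters.
Hist1h2bh, chr13:23543445-23543694, minus strand: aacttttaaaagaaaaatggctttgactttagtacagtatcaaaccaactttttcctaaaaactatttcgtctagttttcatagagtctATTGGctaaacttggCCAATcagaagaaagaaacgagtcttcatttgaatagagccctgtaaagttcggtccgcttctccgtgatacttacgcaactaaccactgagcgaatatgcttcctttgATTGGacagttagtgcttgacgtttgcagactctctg
Hist1h2bm, chr13:21721794-21722043, plus strand: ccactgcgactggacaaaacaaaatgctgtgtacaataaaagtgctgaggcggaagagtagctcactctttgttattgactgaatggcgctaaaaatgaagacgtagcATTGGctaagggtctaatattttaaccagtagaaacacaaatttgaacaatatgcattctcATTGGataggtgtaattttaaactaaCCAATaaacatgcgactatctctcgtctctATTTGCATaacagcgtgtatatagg
Hist2h2aa2, chr3:96240375-96240624, minus strand: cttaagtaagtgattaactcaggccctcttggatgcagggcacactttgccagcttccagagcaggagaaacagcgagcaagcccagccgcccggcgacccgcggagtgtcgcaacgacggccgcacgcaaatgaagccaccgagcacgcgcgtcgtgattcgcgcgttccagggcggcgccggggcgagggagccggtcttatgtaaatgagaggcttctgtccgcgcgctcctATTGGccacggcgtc
Hist2h3c2, chr3:96239128-96239377, minus strand: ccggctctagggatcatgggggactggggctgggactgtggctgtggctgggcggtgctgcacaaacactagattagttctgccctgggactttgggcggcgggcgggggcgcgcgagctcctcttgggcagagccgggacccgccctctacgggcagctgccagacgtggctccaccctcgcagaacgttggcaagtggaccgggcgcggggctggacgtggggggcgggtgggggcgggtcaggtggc
Both H2B windows hold 3 matches to CCAAT, and Hist1h2bm also holds 1 octamer. Hist2h2aa2 and Hist1h4a hold 1 match to CCAAT each, Hist2h3c2 holds none, and TATAAA occurs in no window of the 5. Among 32851 RefSeq promoter windows of the same length, from genes in and out of the deposited table, 33.8% hold CCAAT, 12.4% TATAAA and 1.60% the octamer. The GC content of the windows was 38.4% and 37.6% for Hist1h2bh and Hist1h2bm, against 63.6% for Hist2h2aa2, 71.2% for Hist2h3c2 and 61.6% for Hist1h4a. The search describes letters only, and the counts leave out near matches to the octamer, to TATAAA and to CCAAT. One such stretch is the tatata close to the end of the Hist1h2bm window, so the absence of TATAAA is that of the exact letters. In Hist1h2bh, Hist2h2aa2 and Hist1h4a the RefSeq start lies upstream of the start of the GENCODE transcript. Their windows leave out the bases next to that start, while those of Hist1h2bm and Hist2h3c2 adjoin it. The motif counts therefore compare unlike stretches.

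In the transcripts the GC content was 43.8% for Hist1h2bh, 57.8% for Hist1h2bm, 56.2% for Hist1h4a, 64.2% for Hist2h2aa2 and 60.2% for Hist2h3c2. Over the table, protein-coding genes with the higher mean in OGD/R had a median GC content of 47.4%, and those with the lower mean one of 53.1%. Across the 852 tested genes, Pearson's r between GC content and log2 fold change was -0.38, given as a description over genes that share the same 6 libraries. The annotated exons of the 5 genes were 524 to 1679 nt long, against a median of 3340 nt over the table. Hist1h2bm stands on the higher side of the table with a GC content above that of 88.9% of its genes. GC content moves with the direction of the other 4 genes. Exon length was below the median of the table in all 5 genes, whichever their direction. Pearson's r between log2 length and log2 fold change was 0.14 across the tested genes. Beyond the regression, the part of GC content and length in the differences was not tested.

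**Figure D4:**
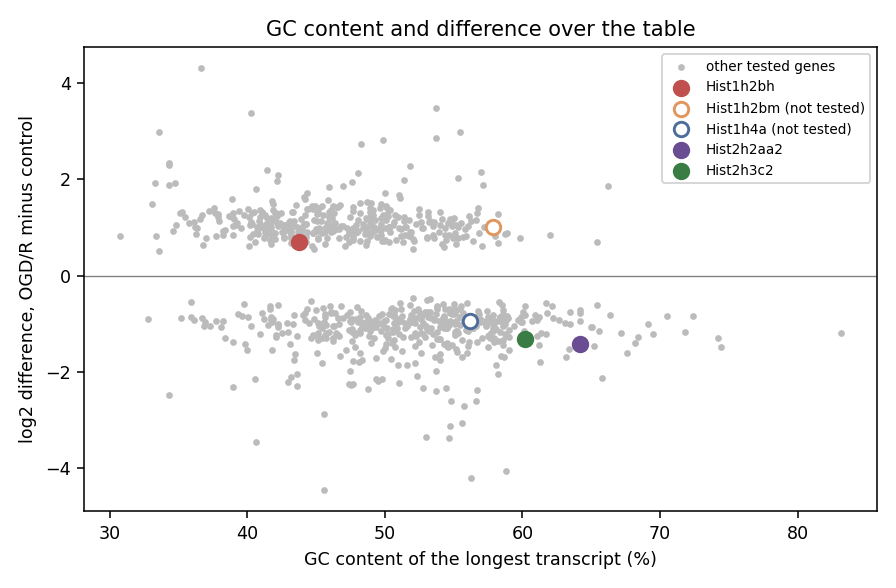
GC content of the longest annotated transcript (%) and log2 difference, OGD/R minus control, for the 852 tested genes (grey) and the 5 histone genes (coloured, open where not tested). Hist2h2aa2 and Hist2h3c2 lie below 0 at 64.2% and 60.2% GC, and Hist1h2bh above 0 at 43.8%.

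**Figure D5:**
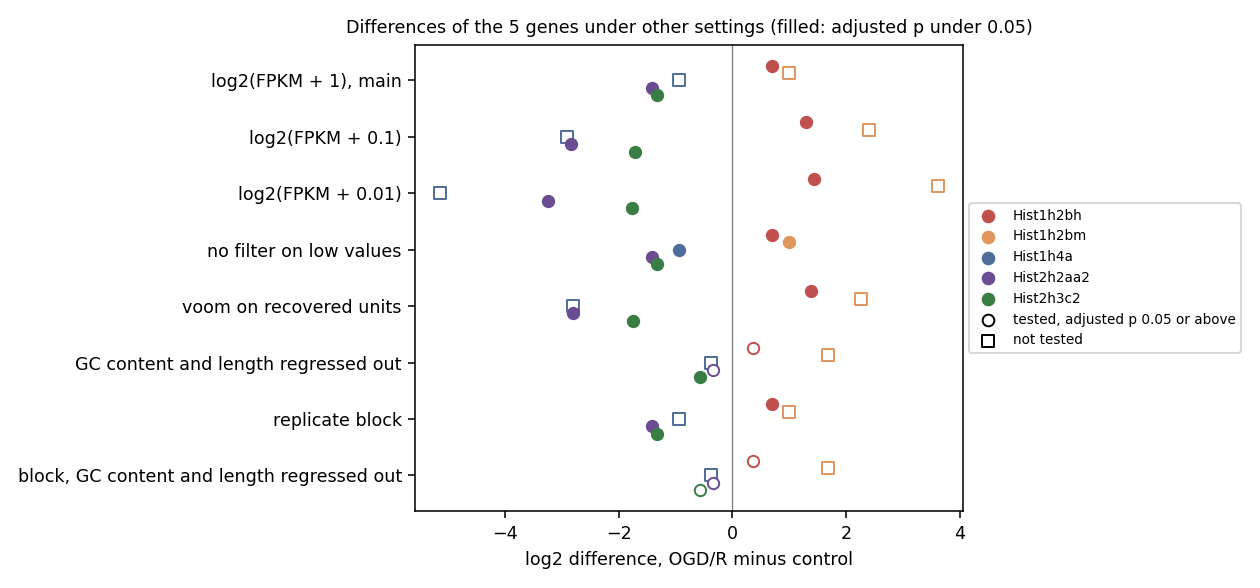
Log2 difference, OGD/R minus control, of the 5 histone genes under 8 settings. Filled circles were called at an adjusted p under 0.05, open circles were tested and not called, and squares were not tested. Directions are kept throughout, and the regression on GC content and length brings Hist1h2bh to 0.37 and Hist2h2aa2 to -0.33.

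Genes that act on histones or with them in S phase were counted from lists of known members, most of which are not in the table. Of 39 listed genes of histone mRNA processing and decay, 2 were in the table and 1 was tested, and it rose. This was Pcf11, a factor of transcription termination and 3′ end cleavage, at 7.51 ± 0.193 FPKM in OGD/R and 3.50 ± 0.465 FPKM in control (SD, n = 3 each; limma, log2 fold change 0.92, adjusted p = 0.000329). Zfp473, whose human counterpart belongs to the machinery that cleaves histone mRNA after the stem-loop, was below the minimum at 1.12 ± 0.0608 FPKM in OGD/R and 0.307 ± 0.0351 FPKM in control. Its 1.15, 1.05 and 1.16 FPKM in the OGD/R samples lay above the 0.31, 0.27 and 0.34 FPKM of the control samples.

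Of 34 histone chaperones and importers, 1 was in the table. Nasp, which binds soluble H3 and H4 and keeps a reserve of them, had 26.1, 29.3 and 33.9 FPKM in the OGD/R samples, against 10.6, 13.1 and 13.2 FPKM in the control samples. The groups did not overlap, and Nasp rose with a log2 fold change of 1.21 (limma adjusted p = 0.000288). Of 18 histone variant genes 1 was in the table, Cenpa, which encodes the H3 variant of the centromere. Cenpa had 18.3, 20.5 and 30.0 FPKM in the OGD/R samples, against 5.43, 8.38 and 7.79 FPKM in the control samples, and rose with a log2 fold change of 1.53 (adjusted p = 0.00072 in limma).

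Of 28 listed genes of histone gene transcription and its cell-cycle control, 3 were in the table and all 3 rose, with a median log2 fold change of 1.19. Ccna2, the cyclin A of S phase and mitosis, had 58.4, 61.8 and 55.5 FPKM in the OGD/R samples, against 25.7, 25.7 and 23.7 FPKM in the control samples. Ccne1, a cyclin whose kinase phosphorylates the histone transcription factor NPAT, had 17.4 ± 1.10 FPKM in OGD/R and 8.36 ± 1.51 FPKM in control (SD, n = 3 each). E2f8, a repressor of the E2F family, rose with a log2 fold change of 1.27 (limma adjusted p = 0.000111). Of 52 genes of S-phase DNA replication 6 were in the table and all 6 rose, with a median log2 fold change of 1.14. They were Rrm1 and Rrm2, which together form the enzyme that makes deoxyribonucleotides, the replication factor Mcm10, the checkpoint mediator Clspn, the fork protein Tipin and the topoisomerase Top2a. In the same libraries Hist1h2bh was higher while Hist2h2aa2 and Hist2h3c2 were lower. The other listed genes are not analysed here, so these counts hold for a table picked for differences, in which 46.6% of tested genes were higher.

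By the likeness of log2(FPKM + 1) over the 6 libraries, among 341 genes with a mean of at least 5 FPKM, Hist1h2bh was most like Cdca5 (Pearson's r = 0.981), Acat2 (0.972) and Cep55 (0.967). Cdca5 holds sister chromatids together, Acat2 is an enzyme of acetyl-CoA metabolism, and Cep55 acts in the last step of cell division. Hist2h2aa2 was most like Ccdc134 (0.997), Calr (0.996) and Manf (0.996), of which Calr is a calcium-binding chaperone of the endoplasmic reticulum and Manf a protein secreted under stress of that compartment. Hist2h3c2 was most like Hsp90b1 (0.992), Slc35b1 (0.983) and Sdf2l1 (0.979), of which Hsp90b1 and Sdf2l1 are a chaperone and a chaperone partner of the same compartment. With each group's mean removed, r was 0.743 to 0.879 for the genes named with Hist1h2bh. It was 0.952 to 0.975 for those with Hist2h2aa2 and 0.772 to 0.920 for those with Hist2h3c2. The named genes were picked for their likeness in these same libraries, so these values are no separate test. Each OGD/R library held 1 unit of Hist2h2aa2, so its values rest almost wholly on control libraries of 6, 11 and 12 units. All of these correlations are descriptions over libraries that share the group difference on which the table was picked. Of the 341 genes compared, r exceeded 0.95 for 9 with Hist1h2bh, for 110 with Hist2h2aa2 and for 52 with Hist2h3c2, so the genes named stand close to many others.

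Of 12 microglial and macrophage markers, Cx3cr1 and P2ry12 were in the table, with summed levels of 2.81 to 3.17 FPKM in OGD/R and 0.79 to 1.08 FPKM in control; Cx3cr1 rose and P2ry12 was not tested. Of 24 markers of other cell types 3 were in the table, namely Vwf, Tubb3 and Cspg4, with summed levels of 1.47 to 1.97 FPKM in OGD/R and 4.01 to 5.11 FPKM in control. Vwf, of endothelium, fell with a log2 fold change of -0.94 (limma adjusted p = 0.0012), and Tubb3 and Cspg4 were not tested and were each listed at 0 in OGD/R sample 2. The part of these markers in the histone values was not tested, and the remaining markers are not analysed here.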

How the data were processed

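RNA from Bv2 cells was sequenced from 1 ug per sample as paired reads of 150 nt, per the labels' protocols. The deposited values are FPKM to 2 decimals, 1 column per sample. Per the submitters' processing notes, GRCm38 was used. Aligner, counter, annotation and how genes were picked for the table: not given in the sources used here. IDs were matched to GENCODE M21 (1227 matched). Each library size was the one at which FPKM values under 15 units, times exon length, became whole within rounding error plus 0.03 units. limma 3.58.1 in R 4.3.3 was fitted to log2(FPKM + 1) of all genes with a mean of at least 1 FPKM (lmFit on group alone, trended eBayes, two-sided, Benjamini-Hochberg over 852 genes, threshold 0.05), and was checked on simulated data. Intervals are exact and cover counting error only, at 95%. Python 3.11.15, pandas 2.3.3, numpy 2.4.6, scipy 1.17.1 and matplotlib 3.10.9 did the rest. Genes named are the 5 histone genes, listed genes in the table, the 3 genes most like each tested one, and the nearest genes of the table. Members and lists were chosen with earlier results of these data known. Alternatives covered pseudocount, filter, scaling, eBayes, voom on units, GC content and length, a replicate block and each replicate left out.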

Additional observations from a re-analysis of the deposited data

How the results depend on the processing

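Every setting that gave a value kept the direction of the 5 histone genes and of the ratios of Hist1h2bh to Hist2h2aa2 and Hist2h3c2. The difference in the log2 ratio of Hist2h2aa2 to Hist2h3c2, at -0.09, turned to 0.23 after the regression on GC content and length. Over 18 results there were 300 alternative values, of which 261 kept their direction and their side of the threshold, or stayed within the limits set for values without a test and for counts. Counts of called histone genes were 3 in the main setting and 5 with no filter on low values. They were 1 with GC content and length regressed out, and 0 with a replicate block added to that regression. Without any 1 replicate they were 3 to 3. Over the table, 829 of 852 tested genes were called in the main setting and 1179 of 1228 with no filter. The regression left 687 of 852 called, and 696 genes were called with the block as well. With GC content and length regressed out, Hist1h2bh had a log2 fold change of 0.37 and Hist2h2aa2 one of -0.33 (limma adjusted p = 0.0695 and 0.124), and with the block as well 0.37, -0.33 and, for Hist2h3c2, -0.56 (adjusted p = 0.123, 0.164 and 0.0619); the cause was not tested. Over all settings the adjusted p ran from 0.00196 for Hist1h2bh, 0.00019 for Hist2h2aa2 and 0.000387 for Hist2h3c2 to those values. Hist1h2bm, at 1.00, was 2.40 and 3.61 with pseudocounts of 0.1 and 0.01, 2.26 with voom, 1.67 with the regression, with and without the block, and was called at 1.00 with no filter. Hist1h4a, at -0.95, was -2.90, -5.14, -2.80 and -0.38 in the same settings and was called at -0.95 with no filter. Since a pseudocount of 1 shrinks low genes, the difference between groups in the log2 ratio of Hist1h2bh to Hist2h2aa2 was 4.14 and 4.68 with pseudocounts of 0.1 and 0.01, that to Hist2h3c2 3.01 and 3.20, and that of Hist2h2aa2 to Hist2h3c2 -1.13 and -1.48. In alternatives chosen after seeing the data, the first was 0.70 with GC content and length regressed out and 4.19 with voom values, the second 0.93 and 3.12, and the last 0.23 and -1.06. Without any 1 replicate the fold changes were 0.59 to 0.75 for Hist1h2bh, 0.77 to 1.46 for Hist1h2bm, -1.20 to -0.75 for Hist1h4a, -1.61 to -1.27 for Hist2h2aa2 and -1.45 to -1.19 for Hist2h3c2, and the tested ones stayed called; the differences in the 3 log2 ratios were 1.87 to 2.36, 1.79 to 2.19 and -0.22 to -0.01. With no filter the called genes were 2 for mRNA processing, 2 for microglial markers and 3 for other markers. Called genes overall numbered 829, 789 to 829 without any 1 replicate, and 409 with a mean of 5 FPKM required, where no histone gene was left to test.

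A replicate block alone changed no call of a histone gene (limma adjusted p = 0.0129 for Hist1h2bh, 0.00175 for Hist2h2aa2 and 0.003 for Hist2h3c2) and called 835 genes. The 3 numbers give no pairing, since libraries of like number deviated from their group means with correlations of 0.428, -0.349 and 0.375, and not every library correlated best with its own number. The median log2 fold change of the tested genes was -0.68, and -0.13 with GC content and length regressed out, a shift of 0.54. No filter moved it by 0.56, the lower pseudocounts and voom by -0.30 to -0.31, and the scalings by 0.04 and 0.07. In a table picked for differences the tested genes lie on both sides of 0 with few between. Depth is a limit, since Hist1h4a had 15 units, Hist1h2bm 22, Hist2h2aa2 32, Hist1h2bh 89 and Hist2h3c2 184 over all 6 libraries.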
